A study of Homo sapiens with 19 samples.

Results

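HIF-1β (ARNT) is the partner with which the HIF-α proteins form DNA-binding dimers, and 1512 of the 6572 HIF-1β ChIP-seq windows of control 786-O cells (23%) shared no base with a window of any HIF-α list. They were chosen by the peak calls alone, as windows of the control HIF-1β list with at least 1 base between them and all 4 HIF-α lists. Those were HIF-2α in control cells (1719 windows), HIF-1α (5147) and HIF-2α (1350) after HIF-1α re-expression, and HIF-2α after its overexpression (5283). The 7 lists together hold 29309 windows of 2500 bp on GRCh37 (hg19).

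786-O is a clear cell renal carcinoma line with defective VHL. The study asked how HIF-1α and HIF-2α differ in binding and in gene expression in these cells. Pools of cells were transduced with virus carrying the empty vector (pRRL, the control), HIF-1α (pRRL-HIF-1a, re-expression) or HIF-2α (pRRL-HIF-2a, overexpression), so all 3 pools had been infected and all share the VHL defect and the cell line's own HIF-2α. HIF-1β and HIF-2α were each assayed by 1 ChIP-seq library per pool. HIF-1α was assayed by 1 library, in HIF-1α re-expressing cells only, so it was not measured in control cells. RNA-seq was made from 3 libraries per pool with 27852754 to 54287621 counts each. Peak windows come without read counts, so the depth behind each one is unknown and no difference between pools has a replicate check. The intervals given below are 95% Wilson intervals for shares and 95% Newcombe intervals for differences, and both cover counting error over windows only.

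Background on the proteins helps to read these windows. HIF-α subunits are stabilised when VHL is lost, pair with HIF-1β and bind the hypoxia response element (HRE), whose core is ACGTG or GCGTG. HIF-1β is also the partner of other basic helix-loop-helix PAS proteins, among them the aryl hydrocarbon receptor (AHR), SIM and NPAS proteins, and as a homodimer it can bind the E-box CACGTG, which contains an HRE core. 786-O cells make no full-length HIF-1α of their own. The paper reports truncated HIF-1α transcripts in them, predicts no transcriptionally active product, and describes the truncated form as able to bind DNA. Since HIF-1α was not assayed in control cells, whether this form was at the windows there is unknown.

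To let the sites be seen, sequence is shown for windows at genes with a known link to HIF or the clock, and for those whose HIF-1β call recurred in the other pools at nearly the same place. All are on the + strand of GRCh37, and capitals mark an HRE core, read on either strand, or an E-box. The SLC2A1 windows lie at chr1:43423027-43425526 (midpoint in an intron, 0.0680 kb downstream of a start site) and the CCND1 window at chr11:69458499-69460998 (intron, 1.27 kb downstream). The PER2 window is at chr2:239168311-239170810, with its midpoint in a coding exon.
SLC2A1: gggtggcgacggGCGTGcgagcggcgctct
CCND1: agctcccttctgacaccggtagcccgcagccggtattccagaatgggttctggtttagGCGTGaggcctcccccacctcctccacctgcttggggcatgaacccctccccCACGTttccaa
PER2: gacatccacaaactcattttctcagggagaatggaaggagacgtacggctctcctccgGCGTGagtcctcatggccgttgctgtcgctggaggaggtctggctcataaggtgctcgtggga

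The next 6 were called with HIF-1β in all 3 pools, and they show the range of sequence found there. PARK7 (chr1:8020483-8022982, non-coding exon), the lncRNA ENSG00000247934 (chr12:28342631-28345130, intron) and TUBA1C (chr12:49657753-49660252, intron) are at start sites. SMYD3 (chr1:245985351-245987850, intron), CACNA1C (chr12:2143065-2145564, intron) and RIN2 (chr20:19955047-19957546, coding exon) are distal.
PARK7: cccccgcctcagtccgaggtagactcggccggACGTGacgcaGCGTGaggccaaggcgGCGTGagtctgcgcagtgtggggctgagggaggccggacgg
ENSG00000247934: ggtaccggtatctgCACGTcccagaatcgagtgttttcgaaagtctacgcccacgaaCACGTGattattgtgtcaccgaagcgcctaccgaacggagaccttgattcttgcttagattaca
TUBA1C: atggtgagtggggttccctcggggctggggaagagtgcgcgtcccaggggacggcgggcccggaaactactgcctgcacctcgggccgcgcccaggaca
SMYD3: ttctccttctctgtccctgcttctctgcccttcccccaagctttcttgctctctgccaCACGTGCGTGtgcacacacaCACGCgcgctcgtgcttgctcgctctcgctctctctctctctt
CACNA1C: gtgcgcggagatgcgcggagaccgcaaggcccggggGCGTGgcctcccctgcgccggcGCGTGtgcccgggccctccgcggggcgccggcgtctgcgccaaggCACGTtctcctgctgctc
RIN2: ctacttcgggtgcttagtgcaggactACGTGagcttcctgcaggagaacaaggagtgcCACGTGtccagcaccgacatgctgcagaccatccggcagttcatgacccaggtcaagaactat

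PARK7, which codes for a protein of the oxidative stress response, held 6 HRE cores within 150 bp of the midpoint, the most of the named windows. Cores were counted on both strands, so each E-box also adds 2 to its window's count of cores. ENSG00000247934 and SMYD3, the latter a methyltransferase gene, held 4 cores and 1 E-box each. RIN2 held 3 cores and 1 E-box, and CACNA1C, a calcium channel gene, 3 cores. TUBA1C, a tubulin gene, and TRRAP (chr7:98475165-98477664, intron), which codes for a subunit of histone acetyltransferase complexes, held none although both were called in all 3 pools. GGA2 (chr16:23520207-23522706, intron), with the closest midpoints among the named windows at start sites (76 bp apart over the 3 pools), held 3 cores and 1 E-box. PNCK (chrX:152940384-152942883, intron) held 2 cores, and TNFRSF13B (chr17:16865151-16867650, intron) held 1 core and 1 AP-1 site.

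The windows lay at widely differing distances from HIF-α. The gap to the nearest HIF-α window ranged from 14 bp to 5974530 bp, with a median of 32608 bp and quartiles of 9461 and 103539 bp. It was under 2500 bp for 133 windows (8.80%) and over 50 kb for 609 (40.3%). On the other side of the rule, the control HIF-1β windows with HIF-α shared a median of 2317 bases with it, and 96.9% shared at least 50% of their length. Just inside the rule, 11 windows had a gap of at most 250 bp, and just outside it 12 shared at most 250 bases, with the smallest overlap at 7 bases. The SLC2A1 window stood 1.70 kb from a HIF-α window and the CCND1 window 1.83 kb, whereas the nearest one was 62.7 kb from PARK7 and 317 kb from SMYD3.

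The HIF-1β lists of the other pools were not used by the rule, but the HIF-α lists of those pools were. In HIF-1α re-expressing cells 223 of the 1512 windows (14.7%, 13.1 to 16.6%) again had a HIF-1β window, and in HIF-2α overexpressing cells 266 did (17.6%, 15.8 to 19.6%). Both pools had one at 60 (3.97%, 3.10 to 5.07%) and neither at 1083 (71.6%). Below, called again with HIF-1α or HIF-2α means a HIF-1β window in that pool and does not mean HIF-α binding there. Of the control HIF-1β windows with endogenous HIF-2α, 45.2% were called again with HIF-1α and 69.3% with HIF-2α. The windows without HIF-α were thus lower by 30.5 percentage points (27.3 to 33.5) and 51.7 points (48.6 to 54.6). The rule had taken out every window with HIF-α in the pools where recurrence was counted. With windows chosen against the control HIF-2α list alone, 35.5% were called again with HIF-1α, so that difference depends on the rule. Where HIF-1α had a window and endogenous HIF-2α did not, the shares were 62.7% and 51.4%. Where motif shares below are compared with those of windows with HIF-1α, this class is meant.

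The 1307 control HIF-1β windows at which HIF-2α was called only in a pool infected with a HIF-α virus were nearer. Of these, 12.4% were called again in HIF-1α re-expressing cells, and the difference of 2.35 points had an interval that included 0 (-0.192 to 4.87). By distance the difference went both ways, since within 1 kb of a start site the windows without HIF-α were called again more often (36.5% against 22.5%, 14 points, 6.61 to 20.9) and beyond 5 kb less often (5.88% against 10.1%, 4.26 points, 1.51 to 7.01). In HIF-2α overexpressing cells 30.5% were called again, 12.9 points more (9.78 to 16.1). These windows were put in their class by HIF-2α in the same overexpressing cells, so the class and the recurrence share their cells. The same holds for the windows with HIF-1α and for those without HIF-α. The HIF-1β lists also differ in size (6572 windows in control, 5807 with HIF-1α and 3431 with HIF-2α), and whether depth set the shares was not tested.

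**Figure D1:**
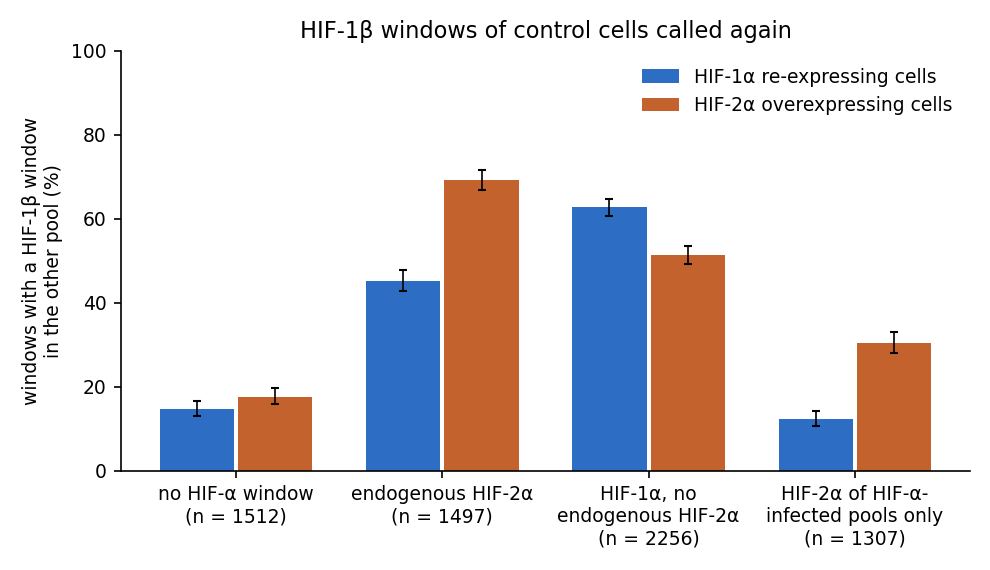
Share of control HIF-1β windows (%, bars, with 95% Wilson intervals) that had a HIF-1β window in HIF-1α re-expressing (blue) or HIF-2α overexpressing cells (orange), for the 4 classes of control window. Windows without HIF-α reached 14.7% and 17.6%, against 45.2% and 69.3% for those with endogenous HIF-2α.

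Recurrence with HIF-1α was more frequent near a transcription start site, whereas recurrence with HIF-2α differed less by distance. Within 1 kb of one, 156 of 427 windows (36.5%, 32.1 to 41.2%) were called again with HIF-1α and 83 (19.4%, 16 to 23.5%) with HIF-2α. Beyond 5 kb the shares were 42 of 714 (5.88%, 4.38 to 7.86%) and 107 of 714 (15%, 12.6 to 17.8%). From 1 to 5 kb they were 6.74% (4.61 to 9.76%) and 20.5% (16.7 to 24.9%), so the intervals with HIF-2α overlapped across distances. Control HIF-1β windows with HIF-α were also called again with HIF-1α more often within 1 kb (68.6%) than beyond 5 kb (24.3%). Windows were also placed on the 20113 5′ ends of all protein-coding genes. Of these, 10.7% met a HIF-1β window from control, 22.7% one from the HIF-1α pool and 6.53% one from the HIF-2α pool. Whether these general shares set the recurrence near start sites was not tested. Where a window was called again, the midpoints lay a median of 230 bp apart with HIF-1α and 216 bp with HIF-2α.

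The windows without HIF-α were a mixture of promoter and distal sites. The median distance from midpoint to nearest start site was 4.38 kb (quartiles 0.614 and 12.7 kb). Of the 1512, 427 (28.2%) were within 1 kb, 371 (24.5%) from 1 to 5 kb, 652 (43.1%) from 5 to 50 kb and 62 (4.10%) farther. With endogenous HIF-2α the median was 5.74 kb and 24.7% were within 1 kb, while with HIF-1α and no endogenous HIF-2α these were 0.262 kb and 71.6%. In 867 windows (57.3%) the midpoint was in an intron and in 429 (28.4%) it was intergenic. UTRs held 95, non-coding exons 89 and coding exons 32. The nearest gene was protein-coding for 841 (55.6%) and a lncRNA for 427 (28.2%).

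Position divided the windows by later call. The 163 called again only with HIF-1α lay a median of 0.291 kb from a start site (69.3% within 1 kb), and the 60 called in both pools 0.334 kb (71.7%). The 206 called again only with HIF-2α lay at 4.55 kb (19.4% within 1 kb, 14.6 to 25.4%), much like the 1083 called in neither pool, at 5.76 kb (21.3%, 19 to 23.9%). Base composition went the same way. CpG-rich midpoints, taken as at least 55% G+C with an observed-to-expected CpG ratio of at least 0.6 over 300 bp, made up 54.0% of those called only with HIF-1α and 36 of the 60 called in both, against 3.88% with HIF-2α only and 6.09% with neither. Over all 1512 windows the share was 13.1% and the median G+C content 51.7%.

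**Figure D2:**
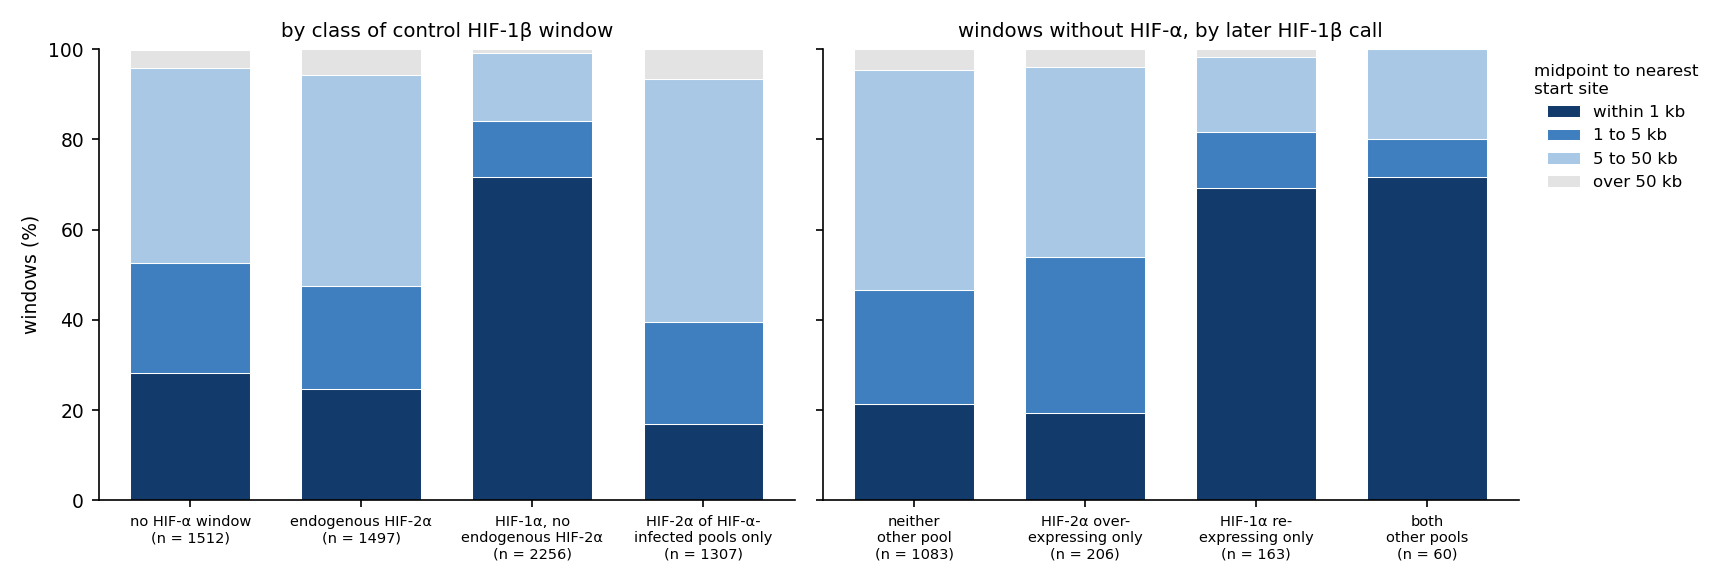
Share of windows (%) by distance from the midpoint to the nearest start site, for the 4 classes of control HIF-1β window (left) and for windows without HIF-α by later HIF-1β call (right). The darkest segment, within 1 kb, was 28.2% of windows without HIF-α, but 69.3% of those called again only with HIF-1α.

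The windows were found on every chromosome, and made up from 18.0% (chromosome 3) to 35.9% (chromosome 13, 25.3 to 48.2%) of the control HIF-1β windows of an autosome. Few were neighbours, since 88 (5.82%) had another window without HIF-α within 10 kb, midpoint to midpoint. Any other control HIF-1β window stood that near to 302.

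HRE cores were about as common without HIF-α as over all 5060 control HIF-1β windows with it (57.1%). Within 150 bp of the midpoint 869 of 1512 windows (57.5%, 55 to 59.9%) held ACGTG or GCGTG on either strand, compared with 34.0% (32.3 to 35.7%) of equal stretches 2000 bp to either side. The share was 23% over 300-bp tiles of the genome and 53.8% at the 5′ ends of protein-coding genes. It was 5.37 points above that with endogenous HIF-2α (52.1%, interval of the difference 1.81 to 8.91), 10.1 points below that with HIF-1α (67.6%, 6.93 to 13.2) and 12.8 points above that with HIF-2α of the HIF-α-infected pools only (44.7%, 9.10 to 16.4). No core was found in 643 windows (42.5%), 1 in 480 and more in 389. An E-box is read as a core on each strand, so it alone placed a window among those with more than 1. Beyond 5 kb of a start site 53.6% held a core without HIF-α and 49.4% with endogenous HIF-2α, a difference whose interval included 0 (-0.785 to 9.31).

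How far a core exceeded the flanks differed with the base before it. ACGTG with T before it was found in 9.72% of windows and was 3.68 times as common as in the flanks. The ratio of ACGTG was 2.84 after G, 2.12 after C, which makes the E-box, and 1.64 after A. For GCGTG it was 3.04 after C, 2.45 after T, 1.93 after A and 1.20 after G. With endogenous HIF-2α, ACGTG after T was found in 12.2% of windows with a ratio of 3.57.

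The E-box itself was present in 145 windows (9.59%, 8.21 to 11.2%), compared with 4.53% of the flanks, 2.70% of tiles and 7.74% of protein-coding 5′ ends. That was 2.91 points more than with endogenous HIF-2α (6.68%, interval 0.957 to 4.87) and 0.148 points more than with HIF-1α (9.44%, -1.73 to 2.10). Farther than 5 kb from a start site it was 9.38% against 5.85% with endogenous HIF-2α (3.53 points, 0.849 to 6.30), and within 1 kb 9.13% against 7.57% (1.57 points, -2.38 to 5.42). The AHR type of site, TNGCGTG, which overlaps GCGTG, was found in 5.95% (4.87 to 7.26%), near the 4.99% (4.27 to 5.83%) of the flanks, and in 3.17% of tiles.

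AP-1, the dimer of FOS and JUN proteins, binds TGAGTCA. This was found in 245 windows (16.2%, 14.4 to 18.1%), in 5.03% of the flanks and in 4.59% of tiles. The share was 17.8% with endogenous HIF-2α, a difference of -1.57 points (-4.25 to 1.12), and 9.44% with HIF-1α, 6.76 points less (4.58 to 9.01). It was 19.4% with HIF-2α of the HIF-α-infected pools only, a difference of -3.23 points (-6.08 to -0.403). Both an HRE core and AP-1 were present in 156 windows (10.3%), AP-1 alone in 89 (5.89%) and neither in 554 (36.6%). Within 1 kb of a start site 10.5% held AP-1, 5.40 points more than with HIF-1α (2.57 to 8.81). Beyond 5 kb 18.6% did and 21% with HIF-1α, so the difference turned and its interval included 0 (-2.38 points, -7.64 to 2.56). Against HIF-2α of the HIF-α-infected pools only, the difference was -3.88 points (-9.70 to 1.30) within 1 kb and -2.41 points (-6.42 to 1.64) beyond 5 kb, and both intervals included 0.

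**Figure D3:**
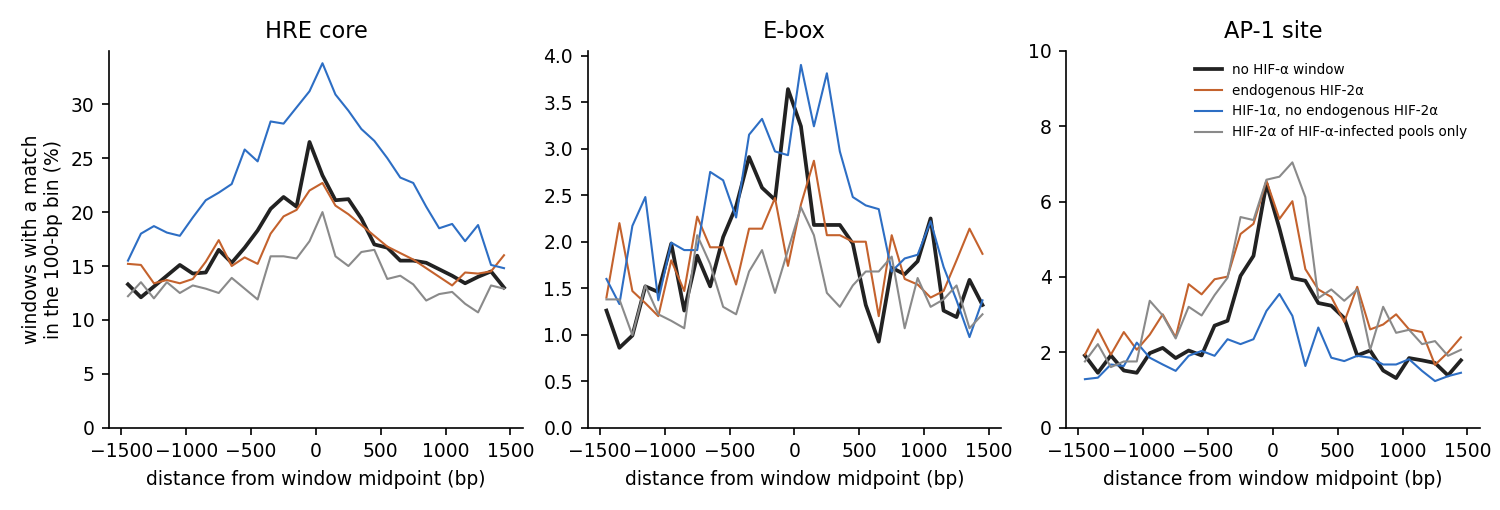
Share of windows (%) with a match in each 100-bp bin by distance from the midpoint (bp), for HRE core, E-box and AP-1 site, each panel with its own scale. In windows without HIF-α (black) the bin just before the midpoint held 26.5% for the HRE core, 3.64% for the E-box and 6.48% for AP-1, against 13.3%, 1.26% and 1.92% in the bin at the left edge.

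Other motifs were searched in the same 300 bp on both strands. The GC box GGGCGG, bound by SP proteins, was in 18.1% of windows (flanks 7.77%, tiles 4.17%), TEAD's GGAATG in 22.1% (15.1%, 15.5%) and ETS's CCGGAAG in 3.24% (1.36%, 0.698%), in each case above the interval of the flanks. The forkhead site TGTTTAC was below its flanks at 2.12% (4.03%, 4.64%). CCAAT was in 29.8% (30.9%, 38.2%). Shares were under 2% for the HNF1 site GTTAATNAT at 1.52% (0.827%, 1.35%), NRF1's GCATGCGC at 1.19% (0.827%, 0.466%), the CTCF type AGGGGGCGC at 0.463% (0.298%, 0.0670%) and the CRE TGACGTCA at 0.397% (0.331%, 0.107%). For these 4 the interval overlapped that of the flanks. A match to letters is a description and shows no binding.

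Sequence also divided the windows by later call. An HRE core was in 54.1% of those called in neither pool, in 70.6% of those called again only with HIF-1α (16.4 points more, 8.47 to 23.6), in 61.7% of those only with HIF-2α (7.54 points more, 0.134 to 14.6) and in 68.3% of those in both (14.2 points more, 1.32 to 25). AP-1 went in opposite directions. It was in 24.3% of windows called only with HIF-2α, 7.74 points above the 16.5% of those called in neither (1.91 to 14.4), and in 5.52% of those called only with HIF-1α, 11 points below (5.92 to 14.5).

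The groups also differed in distance from a start site, so the shares were set side by side within 1 kb of one. There AP-1 was in 12 of 40 windows called only with HIF-2α and in 12.1% of those in neither pool (17.9 points, 5.01 to 33.7), and in 2.65% of those called only with HIF-1α (9.47 points below, 3.42 to 14.6). Beyond 5 kb the difference was 0.403 points (-7.02 to 9.90) for HIF-2α only and -5.21 points (-13.9 to 11.4) for HIF-1α only, and both intervals included 0. The HRE core with HIF-1α only was 12.4 points more frequent within 1 kb (1.48 to 22.3) and 22.6 points beyond 5 kb (4.31 to 35.7). For HIF-2α only it was 1.56 points (-15.0 to 16.7) and 10.3 points (-0.569 to 20.3). Within 1 kb the groups still differed in the GC box, GGGCGG. It was in 62.8% called only with HIF-1α and 33.3% in neither (29.5 points, 18.3 to 39.6). With HIF-2α only it was in 27.5% (-5.83 points, -18.9 to 10.5). Whether base composition set the other shares was not tested. The E-box ranged from 8.86% to 13.5% over the 4 groups, and each difference from those in neither pool had an interval that included 0.

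**Figure D4:**
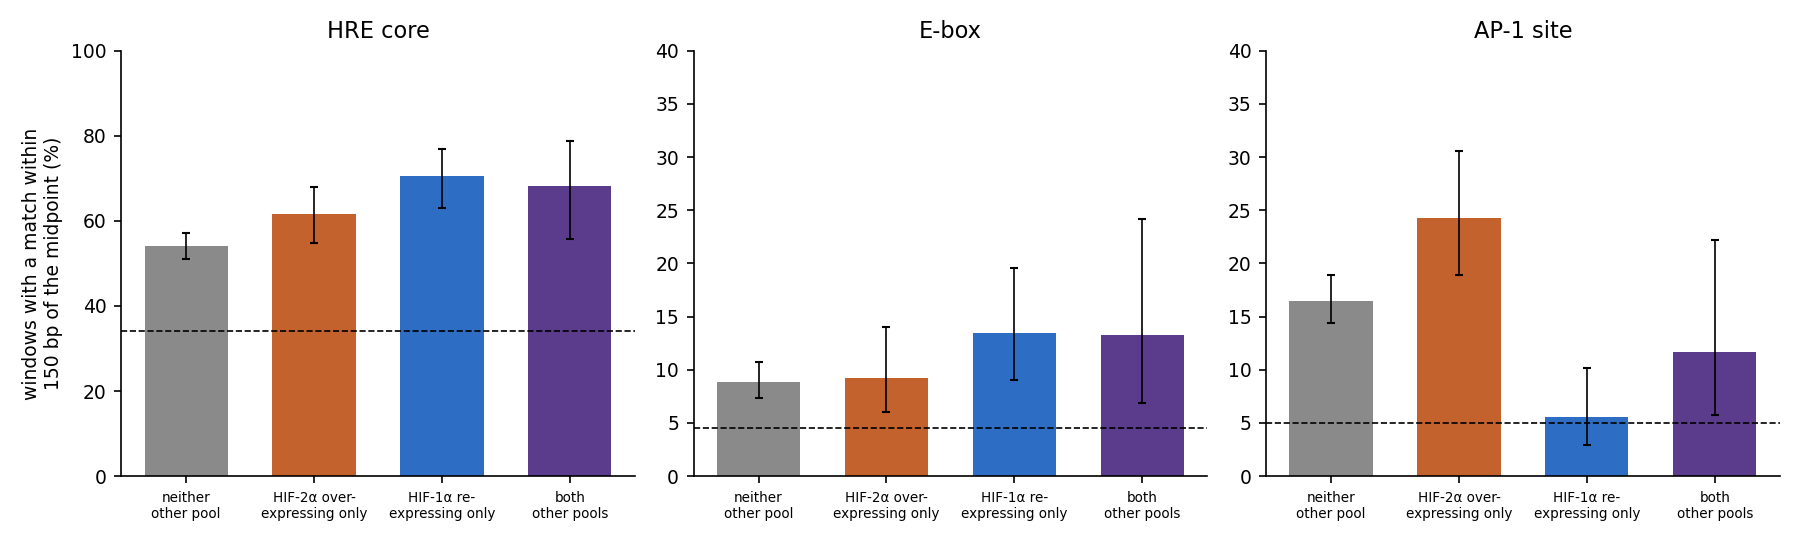
Share of windows without HIF-α (%, bars, with 95% Wilson intervals) that held an HRE core, an E-box or an AP-1 site within 150 bp of the midpoint, by later HIF-1β call, with the share in the flanks of all 1512 windows as a dashed line. AP-1 was in 24.3% of windows called again only with HIF-2α and in 5.52% of those called again only with HIF-1α, and the left panel has a different scale.

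Genes of known HIF-1β pathways were looked up among the nearest genes. Of all 20163 protein-coding genes 616 (3.06%) were the nearest gene of one of the 1512 windows within 10 kb, and 2129 (10.6%) of one of the 5060 control HIF-1β windows with HIF-α, a set that is larger. Of 20 HIF target genes 2 were nearest without HIF-α and 17 with it. They were CCND1, which codes for cyclin D1, and SLC2A1, which codes for the glucose transporter GLUT1 and had 2 windows. Both genes also had a HIF-1β window with HIF-α, so neither was free of it. The promoter window of SLC2A1 was called in all 3 pools, and its second one (chr1:43412949-43415448, intron, 3.49 kb downstream) and that of CCND1 in control cells only.

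None of 12 genes of HIF-1β and its partners and none of 8 AHR targets was nearest, against 0 and 2 (TIPARP and UGT1A6) with HIF-α. Of 12 E-box genes of the circadian clock PER2 and DBP were nearest, and 4 with HIF-α. Of 20 lysosomal genes of the TFEB network 1 was, CTSB, against 5. Of 82 ribosomal protein genes 0 were, against 8, and of 85 histone genes H2AC15 and H4C8, against 2. These lists are small against shares of 3.06% and 10.6%, so each count is given as a description. Of 3945 small nuclear and miscellaneous RNA genes 30 (0.760%) were nearest, and 74 (1.88%) with HIF-α. They were nearest to 32 windows (2.12%), of which 6 were within 1 kb, at RN7SL148P, VTRNA1-2, RN7SK, RNU6-1331P, a Y RNA and RNU6-2. The RN7SK window (chr6:52859022-52861521, intergenic), at the gene of the RNA that holds P-TEFb inactive, had no HRE core within 150 bp of the midpoint and was called in control cells only.

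RNA-seq gave the level of the genes nearest these windows. The targeted genes were checked first. HIF1A was at 30.4, 36.7 and 152 CPM (the share of a library's counts scaled to 1000000) in the 3 control libraries and at 171, 1682 and 473 with HIF-1α re-expression. EPAS1, which codes for HIF-2α, was at 456, 224 and 162 CPM in control and at 946, 3244 and 880 with HIF-2α overexpression. The libraries of each infected pool were thus above those of control for their own gene, and spread widely among themselves. In edgeR, HIF1A had an adjusted p of 0.149 without a replicate block and 0.0418 with it. For EPAS1 these were 0.490 and 0.0690. Without the block the test thus called neither introduced gene, so a count of 0 called genes below does not show that genes were unchanged. EPAS1 was at 575, 627 and 397 CPM with HIF-1α, which overlapped control. ARNT, the gene of HIF-1β, was at 38.6, 42.6 and 33.1 CPM in control, 37.1, 47.0 and 69.9 with HIF-1α and 39.3, 51.8 and 45.4 with HIF-2α, so its groups overlapped. Of 8 renal markers 7 were above 8 CPM in every library, with PAX8 from 175 to 364 CPM, PAX2 from 8.53 to 26.7, CDH6 from 14 to 457, KRT18 from 84.9 to 212, KRT8 from 289 to 603, VIM from 3963 to 5671 and NNMT from 71.4 to 410. The exception was CA9, a HIF target, at 0 to 177 CPM with a median of 0.694. Of 8 markers of other cell types only CD68 exceeded 1 CPM, at 28.6 to 160, and the defining ones PTPRC, CDH5 and KRT5 were at most 0.0853 CPM.

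Within 5 kb of a start site, 798 windows had 770 nearest genes, of which 527 were found in the count table and 482 passed the filter on low counts. Their median control level was 51.0 CPM, compared with 24.7 over the 14225 genes tested, and levels of genes here are not corrected for length. Of the 482, 176 (36.5%) had a HIF-α midpoint within 5 kb of one of their start sites and 353 (73.2%) within 50 kb. These shares were not counted over all genes tested, so they are a description only. Whether the level of such a gene followed its HIF-1β window or the HIF-α window cannot be told apart.

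With HIF-1α re-expression against control, edgeR's quasi-likelihood test with Benjamini-Hochberg adjustment called 0 of the 482 genes higher and 0 lower, and 0% and 0% of all genes tested. At an unadjusted p under 0.05 it was 40 higher and 40 lower of the 482 (8.30% and 8.30%). Of all 14225 genes it was 1586 and 1171 (11.1% and 8.23%). The median log2 fold change was 0.010 against 0.036. DESeq2 called 19 (3.94% of 482) higher and 9 (1.87%) lower, compared with 3.53% and 1.71% over all genes. With the replicate number as a block, which paired libraries of the same number, edgeR called 23 (4.77%) higher and 13 (2.70%) lower, compared with 5.41% and 2.55% over all genes. After adjustment the shares of genes near windows without HIF-α were near those of all genes in each fit. At an unadjusted p the share higher was below that of all genes.

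The blocked calls were sensitive to leaving out 1 library. They fell to 0 higher and 0 lower without HIF-1α re-expressing replicate 2, HIF-2α overexpressing replicate 1, control replicate 2 or control replicate 3, where 0 of all genes were called as well. They rose to 46 (9.43%) and 34 (6.97%) without control replicate 1, when 9.19% and 7.41% of all genes were called. They were 4 and 1 (0.820% and 0.205%, all genes 1.34% and 0.117%) without HIF-1α re-expressing replicate 1, and 2 and 0 (0.412% and 0%, all genes 0.216% and 0.0209%) without HIF-1α re-expressing replicate 3. Without HIF-2α overexpressing replicate 2 they were 18 and 8 (3.70% and 1.64%, all genes 4.11% and 1.59%), and without HIF-2α overexpressing replicate 3 they were 14 and 6 (2.87% and 1.23%, all genes 2.71% and 0.759%).

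With HIF-2α overexpression, which was set against the same control libraries, edgeR called 0 higher and 0 lower without the block (0% and 0% of all genes) and with it (0.112% and 0.155% of all genes). At an unadjusted p under 0.05, without the block, 27 of the 482 were higher (5.60%) and 14 lower (2.90%). Of all genes, 476 (3.35%) were higher and 362 (2.54%) lower. DESeq2 called 0 higher and 1 lower, compared with 0.228% and 0.184% of all genes. With the block, DESeq2 called 15 of 486 (3.09%) higher and 17 (3.50%) lower, compared with 1.86% and 1.52% of all genes, an alternative chosen after seeing the data and the one fit of this comparison with more than 4 such genes in either direction. The median log2 fold change was -0.008 against -0.023 over all genes.

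By size among the genes called with the block and with every library of one group above every library of the other, 5 rises and 3 falls were named, all with HIF-1α re-expression. COL27A1, a fibrillar collagen gene, was at 16.8, 22.8 and 12 CPM in control, 30.6, 82.3 and 92.5 with HIF-1α and 22.6, 38.4 and 48.8 with HIF-2α. Every library with HIF-1α was above every control library, with a log2 fold change of 1.84 ± 0.35 (SE, adjusted p = 0.0342, edgeR with the block, and 0.149 without it). Its window (chr9:116924683-116927182, intron, 4.06 kb upstream of a start site) held 2 HRE cores, was called again with HIF-2α and stood 4.66 kb from a HIF-α window. A HIF-α midpoint lay 0.717 kb from a COL27A1 start site.

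OLFML2A, which codes for an olfactomedin-like protein of the extracellular matrix, was at 29.8, 20.6 and 44.5 CPM in control, 77.0, 99.4 and 217 with HIF-1α and 23.5, 68.6 and 38.9 with HIF-2α. It was higher in 3 of 3 HIF-1α libraries than in any control one, by 1.95 ± 0.40 on the log2 scale (adjusted p = 0.0364 with the block in edgeR, 0.149 without). Its window (chr9:127559434-127561933, intron) held 1 HRE core and recurred in neither pool.

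GRIN2A, an NMDA receptor subunit gene, was at 1.76, 2.08 and 4.06 CPM in control, 5.61, 15.1 and 35.1 with HIF-1α and 0.819, 6.0 and 2.54 with HIF-2α. The HIF-1α libraries spread over a wide range, all above control, and the log2 fold change was 2.54 ± 0.52 (adjusted p = 0.0364 with the block in edgeR, 0.162 without). Its window (chr16:10214087-10216586, UTR) was called again with HIF-1α and held no HRE core within 150 bp of the midpoint.

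CTNND1, the gene of p120 catenin at cadherin junctions, was at 2.48, 3.04 and 0.860 CPM in control, 5.10, 6.88 and 10.1 with HIF-1α and 3.35, 6.52 and 4.29 with HIF-2α. The log2 fold change with HIF-1α was 1.84 ± 0.47 (adjusted p = 0.0468 with the block in edgeR, 0.162 without). SH3D21 was at 1.27, 1.37 and 1.07 CPM in control, 2.77, 30.9 and 3.59 with HIF-1α and 2.31, 3.24 and 1.90 with HIF-2α. HIF-1α replicate 2 stood far above the other libraries, and the log2 fold change was 2.63 ± 0.65 (adjusted p = 0.0450 with the block in edgeR, 0.149 without). The CTNND1 window (chr11:57558293-57560792, intron) held no HRE core and the SH3D21 window (chr1:36771365-36773864, intron) 1.

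ALDH2, the mitochondrial aldehyde dehydrogenase gene, was at 63.8, 110 and 50.9 CPM in control, 30.5, 22.1 and 16.6 with HIF-1α and 48.0, 42.4 and 68.6 with HIF-2α. All HIF-1α libraries were below all control libraries, with a log2 fold change of -1.69 ± 0.34 (adjusted p = 0.0360 with the block in edgeR, 0.149 without). Its window (chr12:112228569-112231068, intron, 0.596 kb upstream) held neither an HRE core nor AP-1 and stood 15.3 kb from HIF-α.

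MRPL23, a gene of the mitochondrial ribosome, was at 39.2, 36.3 and 47.8 CPM in control, 24.1, 22.3 and 16.2 with HIF-1α and 38.3, 22.3 and 29.0 with HIF-2α, and its log2 fold change with HIF-1α was -0.99 ± 0.23 (adjusted p = 0.0427 with the block in edgeR, 0.160 without). A HIF-α midpoint lay 0.0270 kb from one of its start sites, and the window without HIF-α (chr11:1964093-1966592, intergenic) 0.968 kb from a HIF-α window. TNFSF9, which codes for the ligand of the T cell receptor 4-1BB, was at 90.8, 146 and 113 CPM in control, 50.1, 85.1 and 52.9 with HIF-1α and 49.4, 74.4 and 83.0 with HIF-2α. Its log2 fold change with HIF-1α was -0.90 ± 0.19 (adjusted p = 0.0366 with the block in edgeR, 0.179 without), and its window (chr19:6527623-6530122, intergenic) held 2 HRE cores.

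These 8 calls were also sensitive to single libraries. In the blocked fits that left out 1 of the 9 libraries, COL27A1 and ALDH2 passed in 4, GRIN2A, OLFML2A and TNFSF9 in 3, SH3D21 and MRPL23 in 2 and CTNND1 in 1. Each kept its direction in all of them. DESeq2 without the block gave an adjusted p of 0.00108 for ALDH2, 0.00248 for COL27A1 and 0.00488 for OLFML2A. It gave 0.00658 for GRIN2A, 0.0150 for CTNND1, 0.0219 for MRPL23 and 0.0768 for TNFSF9, and no value for SH3D21. The nearest HIF-α midpoint to a start site was at 4.64 kb for GRIN2A, 5.63 kb for OLFML2A, 7.26 kb for ALDH2, 9.14 kb for TNFSF9 and 24.7 kb for SH3D21, and at over 10 kb for CTNND1.

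**Figure D5:**
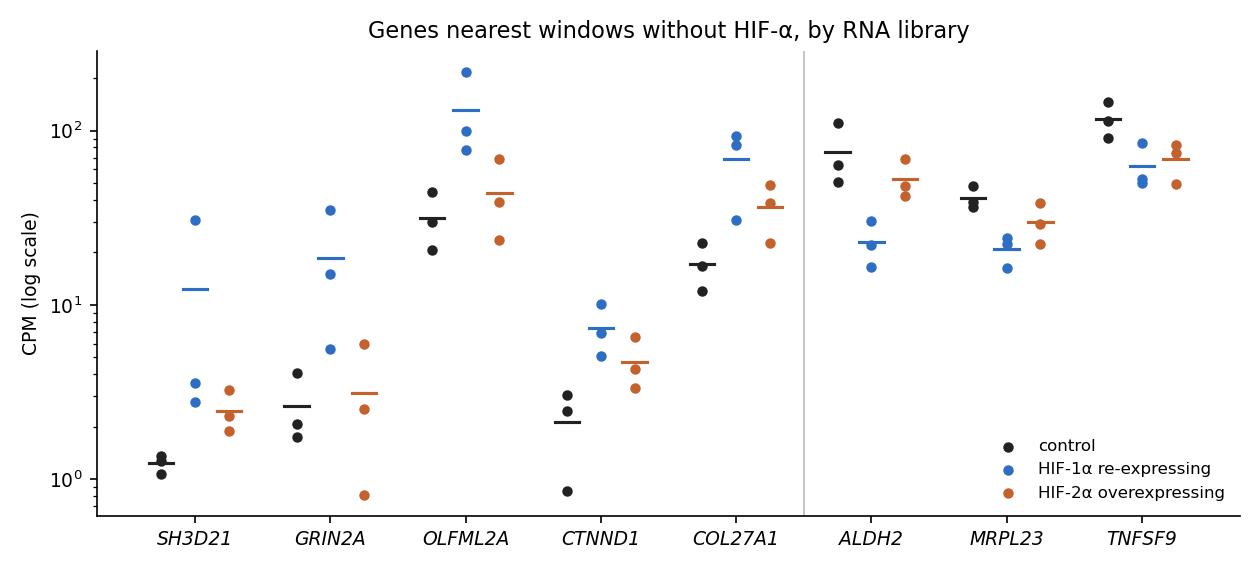
Level (CPM, log scale) of the 8 named genes in each of the 9 RNA-seq libraries, by pool (points), with the mean of each pool as a line. The 5 genes left of the grey line were higher and the 3 right of it lower in every HIF-1α re-expressing library than in every control library, as the naming rule required.

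The named windows that were called in all 3 pools stood mostly at genes that did not pass the test. PARK7 was at 294, 301 and 401 CPM in control, 226, 199 and 189 with HIF-1α and 309, 200 and 226 with HIF-2α, with no overlap between control and HIF-1α. Its log2 fold change with HIF-1α was -0.70 ± 0.21 (adjusted p = 0.0629 with the block in edgeR). TUBA1C was at 949, 1121 and 1243 CPM in control and 729, 679 and 474 with HIF-1α, a log2 fold change of -0.82 ± 0.24 (adjusted p = 0.0639 with the block in edgeR), and at 934, 649 and 944 with HIF-2α. SLC2A1 was at 1264, 995 and 944 CPM in control and 1591, 2959 and 2403 with HIF-2α, with no overlap, a log2 fold change of 1.08 ± 0.25 and an adjusted p of 0.140 with the block in edgeR.

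CACNA1C passed the test with the block. It was at 0.466, 0.228 and 0.756 CPM in control, 3.68, 1.65 and 4.91 with HIF-1α and 0.457, 0.802 and 0.154 with HIF-2α, and rose with HIF-1α by a log2 fold change of 2.80 ± 0.65 (adjusted p = 0.0418 with the block in edgeR, 0.149 without). Of the 9 blocked fits that left out 1 library it passed in 2, and it was higher in all 9. Its window lay 13.2 kb upstream of a start site. TNFRSF13B was at or near 0 CPM in all libraries (at most 0.0506) and was not tested.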

How the data were processed

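ChIP-seq windows and RNA-seq counts were used as deposited. The authors trimmed reads with Trim Galore 0.3.3, aligned ChIP reads to GRCh37 with BWA 0.7.5a-r405, filtered them with SAMtools 0.1.19, bedtools 2.17.0 and Picard 1.106, called peaks with both T-PIC and MACS, and kept peaks whose counts exceeded those of random DNase regions. The deposited windows, whose coordinates carry no score, are 2500 bp wide, so no stricter peak threshold could be set and the midpoint stands in for the summit. The authors aligned RNA reads with TopHat2 2.0.8b and Bowtie 1.0.0 and deposited HTSeq 0.5.4p3 raw counts per gene from directional polyA+ libraries.

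Windows were classed with Python 3.11.15 (at least 1 shared base) and annotated with GENCODE v44 lifted to GRCh37, whose sequence gave the motifs. For shares, a motif was counted once per window if either strand matched at most 150 bp from the midpoint. Numbers of HRE cores count every match on both strands, overlapping ones included. Counts were tested with edgeR 4.0.16 in R 4.3.3 (TMM, quasi-likelihood, adjusted p under 0.05) over all 9 libraries with pool as the only term. DESeq2 1.42.0, which the study's methods name, and a replicate block were alternatives, alongside other overlaps, start sites, searched stretches, scalings and filters and leaving out each library. The labels number the RNA libraries 1 to 3 in each pool. Over the deviations from pool means, the 9 correlations between libraries of the same number were 0.348 to 0.652 and the 18 of different numbers -0.478 to 0.0281, so the numbers were taken to pair the libraries. Nothing states that they came from separate cultures, so p-values measure only the spread between these libraries. Of 23441 gene symbols 20654 matched the annotation as written and 1349 through an older RefSeq symbol.

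Named windows were those nearest a listed gene within 10 kb, and, among those called in both other pools, the 6 within and 4 beyond 5 kb of a start site whose HIF-1β midpoints lay closest together. Named genes were nearest within 5 kb, at least 5 CPM in the pool where higher, past the threshold and without overlap, the 5 largest rises and 3 largest falls per comparison, from the blocked fit where the other called none. The windows and gene lists were chosen with earlier results of these data known. The fits were tested on simulated data for the HIF-1α comparison over 14225 genes, of which 200 were changed by a log2 fold change of 2. They recovered 179 without the block (2 false calls) and 183 with it (12 false calls). The simulated spread was that of the blocked fit with an added replicate effect. On the real counts the fit without the block called 0 of 14225 genes, so the recovery does not measure power on these data.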

Additional observations from a re-analysis of the deposited data

How the results depend on the processing

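Over 14 summary values and 135 alternatives, 90 left the value within its spread or its count within 1.5 times, among them an overlap of 50% and a gap of at least 2500 bp, and 45 did not. With midpoints over 250 bp apart as the rule there were 3517 windows, and set against the control HIF-2α list alone 5075. Under a 250 bp limit between midpoints, windows were called again at 7.74% with HIF-1α, 9.85% with HIF-2α and 1.59% in both. Against the control HIF-2α list alone these were 35.5%, 35.9% and 17.5%, 63.3% lay within 5 kb of a start site (median 1.74 kb), 62.0% had a protein-coding nearest gene and 14% held AP-1. With protein-coding start sites 39.2% were within 5 kb (median 9.89 kb), and with 1 start site per gene 37.2% (9.12 kb), with 38% nearest a protein-coding gene. Searching 500 bp to either side found an HRE core in 90.7%, an E-box in 22.8% and AP-1 in 35.8%, and the whole window 98.7%, 39.2% and 52.4%, so the motif shares hold only for the stretch named.

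For genes near the windows, the HIF-1α comparison gave 0 higher and 0 lower in edgeR, also without each library in turn, 19 and 9 in DESeq2 and 23 and 13 with the replicate block. Chosen after seeing the data, the block in DESeq2 gave 46 and 52 (9.56% and 10.8%, all genes 11.7% and 9.85%), and the block without each library 0 to 46 higher and 0 to 34 lower (18 and 8 without HIF-2α overexpressing replicate 2, 14 and 6 without replicate 3). The HIF-2α comparison gave 0 higher and 1 lower in DESeq2, 0 and 0 with the block, 15 and 17 with the block in DESeq2 (3.09% and 3.50%, all genes 1.86% and 1.52%), and 0 to 2 and 0 to 4 with the block without each library (at most 0.412% and 0.823%, all genes at most 0.407% and 0.376%). The cause of these shifts was not tested. The 8 named genes kept their direction in 183 alternatives and passed the threshold in 44. With at most 1 ChIP library per antiserum and pool, no interval here covers variation between cultures.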
